A study of Homo sapiens with 24 samples.

Results

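Immediate early genes are switched on within minutes of a stimulus, without new protein synthesis, and their mRNAs are removed again within a short time. Many of these mRNAs carry AU-rich elements, runs of A and U in the 3′ untranslated region (UTR) built on the pentamer AUUUA. Proteins that bind such elements, TTP (the product of ZFP36) and its relatives among them, recruit the CCR4-NOT complex, which shortens the poly(A) tail before the mRNA is degraded. CNOT3 is a subunit of that complex.

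A list of 46 immediate early and AU-rich mRNAs was followed, and its members were kept where the deposited conversion was above 0 in all 4 libraries at the start of the chase. Of the 46, 35 met this rule, out of 19798 genes in the table, of which 11692 met it. A further filter for testing, conversion above 0 in at least 20 of the 24 libraries, left 28 members and 10731 genes in all. FOS, FOSB, JUNB, DUSP5, DUSP6, CCN2 and BHLHE40 met the rule but not the filter. FOSL1, FOSL2, MYCN, EGR1, EGR2, EGR3, DUSP2, SPRY4, ZFP36, PLAU and CXCL8 did not meet the rule. Of the 28 tested, 14 were above 0 in every library, 12 were listed at 0 only in sgNT libraries and 2 in both genotypes, so the filter kept some members through the genotype in which they were higher. The members were listed for their reputation as unstable mRNAs, with earlier results of these data known.

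The samples were HEK293T, a transformed human embryonic kidney line, transduced with lentiCRISPR_v2 carrying guides against CNOT3 (sgCNOT3, labelled CNOT3-knockout) or negative control guides (sgNT), and selected in puromycin. The cells were transduced populations rather than clones, with a pair of guides named for each genotype and no label saying which library received which guide. All cells of both genotypes were labelled with 75 µM 4-thiouridine (4-SU) for 24 h, the medium being renewed every 3 h, before a chase with 10 mM UTP. Harvests followed at 0, 1, 2, 4, 8 and 12 h, with 2 libraries for each genotype and time and 12 libraries a genotype. After iodoacetamide treatment a labelled uridine is read as C, so the T-to-C conversion of a gene, given here in percent, falls as RNA made before the chase is replaced. The labels do not say whether replicates came from separate cultures, so that a p-value here reflects only how far these libraries varied, possibly for technical reasons. Read depth is unknown, and an exact 0 is given as listed at 0.

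The median conversion over all genes tested was 32.0% to 35.9% in the 4 libraries at 0 h and 5.17% to 9.84% in the 4 libraries at 12 h. The replicates of sgCNOT3 at 2 h stood apart from each other, with medians of 29.1% and 18.8% and a Spearman correlation across genes of 0.34, against 0.53 to 0.76 in the other groups. A conversion share does not measure the amount of RNA or editing of CNOT3.

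AU-rich sites of 7 of the 12 slower members, and of FOS, are shown because the list was one of immediate early and AU-rich mRNAs. They were picked to show the nonamer, the heptamer and a lone pentamer, and of the slower members not shown, CCND1, ID4 and PIM3 hold a heptamer in the window found in the same way and ID3 and MCL1 only pentamers. Each line gives 30 bases of the 3′ UTR, 5′ to 3′ on the strand of the transcript, around the place with most matches to the pentamer AUUUA, to the heptamer UAUUUAU and to the nonamer UUAUUUAUU, searched on the transcript strand with overlaps counted, and capitals mark the matches. Positions are on GRCh38, read from GENCODE release 44 transcripts. MAFF (chr22:38216402-38216431, plus strand), MAFK (chr7:1542851-1542880, plus strand), DUSP8 (chr11:1556372-1556401, minus strand) and FOS (chr14:75282059-75282088, plus strand) hold the nonamer. ID2 (chr2:8683875-8683904, plus strand), ATF3 (chr1:212620704-212620733, plus strand) and CCN1 (chr1:85583660-85583689, plus strand) hold the heptamer. TXNIP (chr1:145993410-145993439, minus strand) holds a lone pentamer.
MAFF: gcuccuagaAUUUAUUUAUUuccugacuua
MAFK: uuccauuucaUUAUUUAUUuuuugugcugc
DUSP8: uucgauuuuUUAUUUAUUUAagcuguucau
FOS: guguuuuuaAUUUAUUUAUUaagauggauu
ID2: gugauauucguUAUUUAUgaaaaagacuuu
ATF3: aaaauauuacuUAUUUAUccuaguauuccu
CCN1: auuuUAUUUAUggaauuaaccAUUUAauaa
TXNIP: ggagaagagccaAUUUAacaaacuaggaag

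On these transcripts, 25 of the 28 tested members (89.3%) had AUUUA in the 3′ UTR, against 75.0% of 10708 genes tested that have a 3′ UTR. The heptamer UAUUUAU was present in 20 members (71.4%) and in 36.6% of the genes. The nonamer UUAUUUAUU was in 7 members (25%), MAFF, MAFK, DUSP8, DUSP1, PIM1, IER5 and VEGFA, and in 9.75% of the genes. Within the last 500 bases of UTRs at least that long, the heptamer was in 16 of 26 members (61.5%) and 16.7% of the genes. The median 3′ UTR was 1136.5 bases in members and 1385.5 bases over the genes. The shares describe how the list was chosen and are not a result of the chase.

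In control cells these mRNAs lost their label early. The median member of the 28 kept 86.5% of its starting conversion at 1 h, 47.6% after 2 h, 29.4% after 4 h, 4.43% after 8 h and 1.17% after 12 h in sgNT. The median over all genes tested was 97.5%, 74.0%, 70.7%, 37.3% and 17.8% at the same times. At 4 and 8 h each of the 28 members was below the median gene. In sgCNOT3 the median member kept 96.4% after 1 h, 69.5% after 2 h, 46.4% after 4 h, 19.4% after 8 h and 3.82% after 12 h, and the median gene 100.2%, 77.4%, 63.4%, 54.8% and 29.8%. The members stayed below the median gene in 20 of 28 cases at 4 h and 26 of 28 at 12 h in sgCNOT3.

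The genotype comparison asked whether decay of these mRNAs differed in sgCNOT3. For each gene, a slope of log2(conversion + pseudocount) against chase time was fitted in each genotype with limma, and the difference in slope, sgCNOT3 minus sgNT in log2 units per h, was tested. A difference above 0 means slower loss of label in sgCNOT3. Of the 28 members, 12 were slower (42.9%) and 0 faster at an adjusted p under 0.05 in limma, with 18 slower and 0 faster at an unadjusted p under 0.05. Over all genes tested, 21.7% were slower and 0.345% faster. The median slope difference was 0.184 per h over the members and 0.058 over all genes, and 23 of the 28 estimates were above 0 (82.1%), against 81.7% of all genes. The medians were 0.085 and 0.047 with genes above 0 in all 24 libraries, which held 14 of the members. With a pseudocount of 10% of the median at 0 h in place of 1%, the medians were 0.053 and 0.036. That setting left 5 members slower (ID2, TXNIP, CCND1, ID4 and MCL1), against 14.7% of all genes. Among the 12 slower members, MAFF, ID3, ID4, DUSP8, MAFK and CCN1 were listed at 0 in sgNT libraries only. The median slope in sgNT was -0.52 for members and -0.21 for all genes, and in sgCNOT3 -0.35 and -0.14. With each library centred on its median, 5 members were slower (MAFF, ID2, TXNIP, ID4 and MCL1) and 1 faster, and over all genes 586 were slower (5.46%) and 654 faster (6.09%). The count of slower members was 3 without the 1 and 2 h libraries, where 9.12% of all genes were slower, and 4 when only 0 to 4 h were used, where 0.848% were.

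**Figure D1:**
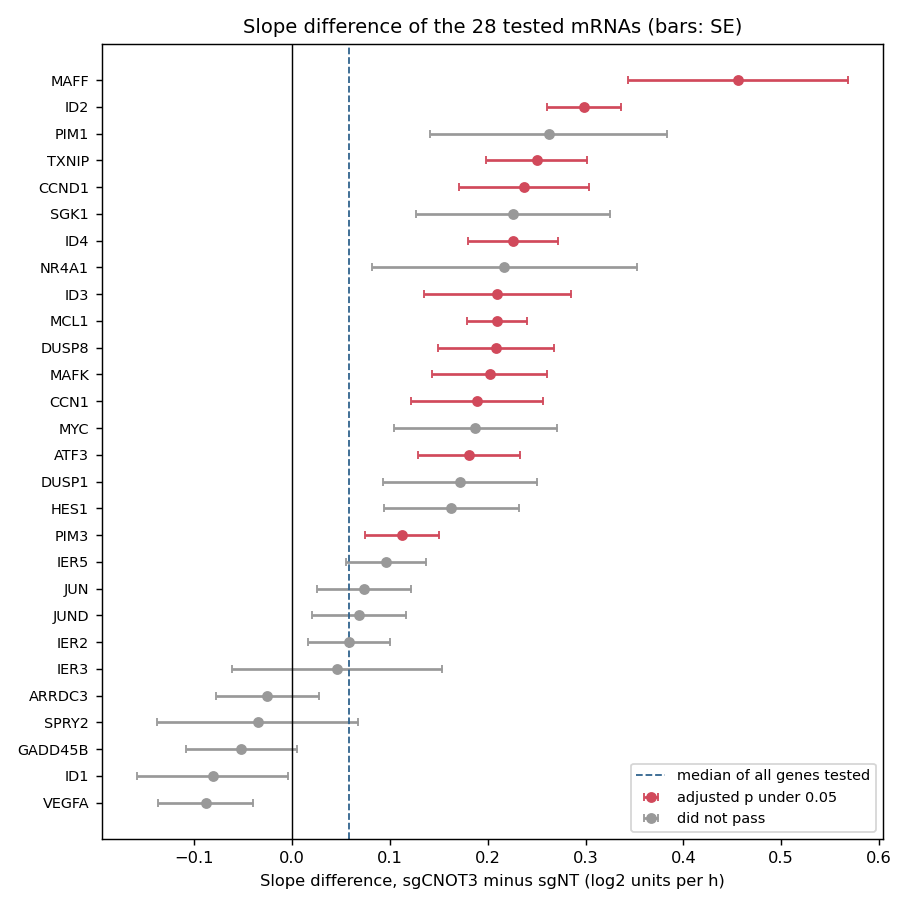
Slope difference of each of the 28 tested mRNAs, sgCNOT3 minus sgNT in log2 units per h (x axis), with bars of 1 SE, from all 24 libraries; red marks an adjusted p under 0.05 and the dashed line is the median of all genes tested. MAFF lies furthest to the right at 0.456, the 12 mRNAs past the threshold all lie above 0, and 5 estimates lie below 0.

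Among the leucine zipper transcription factors, which pair through a coiled coil to bind DNA, 8 of 10 listed met the rule, 5 were tested and 3 were slower: MAFF, MAFK and ATF3. MAFF, a small MAF protein that lacks an activation domain of its own, had conversions in sgNT of 56.7% and 87.5% at 0 h, 44.4% and 21.4% after 1 h, 36.0% and 10.8% after 2 h, 35.7% and 18.8% after 4 h, listed at 0 and 21.7% after 8 h, and listed at 0 in both after 12 h. In sgCNOT3 the values of MAFF were 46.7% and 23.5% at 0 h, 57.1% and 70.8% after 1 h, 62.5% and 25.9% after 2 h, 43.8% and 14.1% after 4 h, 16.7% and 30.8% after 8 h, and 8.45% and 19.1% after 12 h. The genotypes overlapped at 2, 4 and 8 h, and were apart at 0 h, where sgCNOT3 was lower, and at 1 and 12 h, where it was higher. The slope difference of MAFF was 0.456 per h ± 0.112 (SE, limma adjusted p = 0.0053), the highest of the members. The call was lost with a pseudocount of 10% of the median at 0 h in place of 1% (limma adjusted p = 0.065), with 0 to 8 h alone (0.26) or 0 to 4 h alone (0.86), and without replicate 1 (0.15) or replicate 2 (0.056).

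MAFK, a second small MAF protein, had 41.2% and 45.3% at 0 h in sgNT, then 35.9% and 33.7% after 1 h, 11.2% and 24.0% after 2 h, 9.93% and 15.5% after 4 h, 1.06% and 3.80% after 8 h, and 1.62% and listed at 0 after 12 h. In sgCNOT3 MAFK had 41.3% and 47.0% at 0 h, 28.6% and 34.8% after 1 h, 27.6% and 33.8% after 2 h, 15.8% and 27.1% after 4 h, 16.1% and 8.20% after 8 h, and 2.17% and 4.64% after 12 h. From 2 h on, both sgCNOT3 values lay above both sgNT values. Its slope difference was 0.202 per h ± 0.059 (SE, limma adjusted p = 0.016), and adjusted p was 0.093 without sgNT replicate 2 at 12 h. The call was also lost with a pseudocount of 10%, with libraries centred, with 0 to 4 h alone and without 1 and 2 h.

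ATF3, a stress-induced repressor of the ATF/CREB family, had 29.0% and 24.7% at 0 h in sgNT, 24.9% and 25.2% after 1 h, 20.1% and 31.5% after 2 h, 19.7% and 15.2% after 4 h, 3.76% and 2.43% after 8 h, and 0.292% and 0.792% after 12 h. In sgCNOT3 ATF3 had 29.1% and 13.9% at 0 h, 32.7% and 25.4% after 1 h, 28% and 29.4% after 2 h, 19.8% and 27.4% after 4 h, 11.2% and 10.2% after 8 h, and 2.31% and 2.66% after 12 h. The groups were well apart at 8 and 12 h. The slope difference was 0.181 per h ± 0.052 (SE, limma adjusted p = 0.015), and adjusted p was 0.068 without sgNT replicate 1 at 12 h. As for MAFK, a pseudocount of 10%, centring, 0 to 4 h alone and leaving out 1 and 2 h each ended the call.

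FOS, the partner of JUN in the AP-1 factor and the best known immediate early gene, could not be tested because it was listed at 0 in 7 of the 12 sgNT libraries. Its conversions in sgNT were 35.7% and 50% at 0 h, 16.7% and listed at 0 at 1 h, 12.5% and 4.05% at 2 h, and listed at 0 in all 6 libraries from 4 to 12 h. In sgCNOT3 FOS was above 0 in all 12 libraries, with 68.8% and 47.6% at 0 h, 58.1% and 20% after 1 h, 37.5% and 3.62% after 2 h, 21.6% and 20.4% after 4 h, 8.00% and 1.80% after 8 h, and 8.45% and 5.17% after 12 h. It was the only one of the 7 untested members that was never listed at 0 in sgCNOT3. With the depth unknown, a value of 0 may stand for no converted read or for too few reads. JUNB, FOSB, DUSP5, DUSP6, CCN2 and BHLHE40 were listed at 0 in both genotypes, and JUNB at 8 h was listed at 0 in both sgNT libraries and at 5.13% and 6.49% in sgCNOT3.

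JUN, the other AP-1 partner, lost its label early in both genotypes. Its conversions in sgNT were 42.9% and 38.0% at 0 h, 35.8% and 27.7% after 1 h, 11.2% and 11.4% after 2 h, 4.83% and 6.58% after 4 h, 0.872% and 0.455% after 8 h, and 0.297% and 0.0371% after 12 h. In sgCNOT3 JUN had 34.2% and 24.2% at 0 h, 27.5% and 31.4% after 1 h, 19.9% and 22.6% after 2 h, 8.00% and 11.4% after 4 h, 1.57% and 1.66% after 8 h, and 0.264% and 0.573% after 12 h. The sgCNOT3 values began lower than those of sgNT and were higher at 2, 4 and 8 h, yet the slope difference of 0.074 per h ± 0.048 (SE, limma adjusted p = 0.29) did not pass. JUND, a further JUN family member, had a slope difference of 0.068 per h and was higher in sgCNOT3 at 8 h by 1.62 on the log2 scale (limma adjusted p = 0.025).

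None of the 3 tested members among the other transcription factors passed the slope test: NR4A1, an orphan nuclear receptor, at 0.217 per h, MYC at 0.187 and the Notch target HES1 at 0.163. MYC, the growth-promoting factor whose mRNA is a textbook case of rapid turnover, had 61.1% and 50% at 0 h in sgNT, 37.9% and 24.2% after 1 h, 15.7% and 17.7% after 2 h, 1.30% and 1.30% after 4 h, 0.237% and 0.725% after 8 h, and was listed at 0 in both after 12 h. In sgCNOT3 MYC had 37.3% and 27.6% at 0 h, 38.7% and 52.8% after 1 h, 23.6% and 32.4% after 2 h, 15.9% and 13.4% after 4 h, 6.82% and 7.96% after 8 h, and 1.19% and 0.184% after 12 h. MYC thus began lower in sgCNOT3 and from 1 h on was higher in every pair of libraries. Its slope difference had an adjusted p of 0.11 in limma, and the difference at 4 h was 3.19 ± 0.46 on the log2 scale (SE, limma adjusted p = 0.00081). EGR1, a zinc finger factor of the same early response, did not meet the rule. In sgNT EGR1 had 54.5% and 33.3% at 0 h, 55.6% and 28% after 1 h, 3.85% and 11.8% after 2 h, 8.33% and listed at 0 after 4 h, listed at 0 and 15.0% after 8 h, and was listed at 0 in both after 12 h. In sgCNOT3 EGR1 had 62.5% and listed at 0 at 0 h, 73.7% and 25% after 1 h, 29.8% and 28.9% after 2 h, 13.2% and 4.65% after 4 h, listed at 0 and 1.47% after 8 h, and was listed at 0 in both after 12 h. The genotypes were apart only at 2 h, where sgCNOT3 was higher.

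The ID proteins are helix-loop-helix proteins without a DNA-binding region that hold basic helix-loop-helix factors inactive. All 4 were tested, ID2, ID3 and ID4 were slower, and ID1 was not. ID2 had 62.8% and 59.7% at 0 h in sgNT, 60.2% and 51.1% after 1 h, 34.6% and 34.1% after 2 h, 15.4% and 12.8% after 4 h, 2.10% and 1.38% after 8 h, and 0.570% and 0.591% after 12 h. In sgCNOT3 ID2 had 42.2% and 35.3% at 0 h, 41.0% and 43.5% after 1 h, 42.8% and 46.6% after 2 h, 30.9% and 39.1% after 4 h, 16.5% and 17.4% after 8 h, and 4.58% and 4.95% after 12 h. ID2 was lower in sgCNOT3 at 0 and 1 h and higher from 2 h on, with no overlap at any time. Its slope differed by 0.298 per h ± 0.038 (SE, limma adjusted p = 2.1e-05), and its call was kept under all 10 alternatives other than leaving out libraries.

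ID3 had 47.6% and 54.1% at 0 h in sgNT, 50.1% and 38.2% after 1 h, 31.2% and 29.9% after 2 h, 10.3% and 20.7% after 4 h, 0.843% and 1.32% after 8 h, and 1.33% and listed at 0 after 12 h. In sgCNOT3 ID3 had 25.5% and 37.2% at 0 h, 31.4% and 42.4% after 1 h, 33.0% and 19.2% after 2 h, 24.2% and 30.4% after 4 h, 13.9% and 16.8% after 8 h, and 1.09% and 0.870% after 12 h. ID3 was lower in sgCNOT3 at 0 h, a start that enters the slope, was higher at 4 and 8 h, and overlapped at 1, 2 and 12 h. Its slope difference of 0.210 per h ± 0.075 (SE) was just inside the threshold (limma adjusted p = 0.047) and stayed there in only 4 of the 24 fits that left out 1 library. A pseudocount of 10% and centring were among the other settings that ended the call.

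ID4 had 44.4% and 39.0% at 0 h in sgNT, 36.6% and 27.1% after 1 h, 23.5% and 28% after 2 h, 16.6% and 12.5% after 4 h, 4.31% and 1.64% after 8 h, and 0.593% and listed at 0 after 12 h. In sgCNOT3 ID4 had 35.9% and 28.2% at 0 h, 30.6% and 26.6% after 1 h, 31.1% and 31.9% after 2 h, 22.4% and 27.1% after 4 h, 10.8% and 10.9% after 8 h, and 2.39% and 2.14% after 12 h. From 2 h on the sgCNOT3 values were the higher ones, and the slope difference was 0.226 per h ± 0.046 (SE, limma adjusted p = 0.0012). With 0 to 4 h alone, or without 1 and 2 h, the call of ID4 was lost. ID1 differed from its relatives in the sign of its estimate, -0.081 per h ± 0.077 (SE, limma adjusted p = 0.49), with 35.3% and 27.6% in sgNT against 82.1% and 42.6% in sgCNOT3 at 0 h. At 12 h ID1 had 6.10% and 5.68% in sgNT and 1.01% and 3.97% in sgCNOT3.

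Of the proteins that damp signalling, the dual-specificity phosphatases (DUSP) remove phosphate from MAP kinases, Sprouty proteins inhibit growth factor signalling, and TXNIP and ARRDC3 are arrestin-like. Here 7 of 9 listed met the rule, 5 were tested, and TXNIP and DUSP8 were slower. TXNIP had 44.2% and 44.2% at 0 h in sgNT, 45.9% and 39.3% after 1 h, 23.5% and 25.4% after 2 h, 11.8% and 14.1% after 4 h, 1.10% and 2.20% after 8 h, and 0.485% and 1.36% after 12 h. In sgCNOT3 TXNIP had 19.5% and 21.1% at 0 h, 19.6% and 21.1% after 1 h, 27.1% and 29.0% after 2 h, 17.5% and 20.3% after 4 h, 10.5% and 14.5% after 8 h, and 2.21% and 2.78% after 12 h. TXNIP thus started far below sgNT, was the higher from 2 h on, and its genotypes crossed. The slope difference was 0.25 per h ± 0.052 (SE, limma adjusted p = 0.0014), a value that holds the lower start as well as the later gap. Leaving out 1 and 2 h ended the call of TXNIP.

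DUSP8, which acts on JNK and p38 kinases, had 30% and 23.3% at 0 h in sgNT, 29.8% and 28.2% after 1 h, 18.2% and 35.5% after 2 h, 4.26% and 17.6% after 4 h, 0.637% and 0.962% after 8 h, and was listed at 0 in both after 12 h. In sgCNOT3 DUSP8 had 57.7% and 50% at 0 h, 38.5% and 30% after 1 h, 44% and 13.6% after 2 h, 13.0% and 13.0% after 4 h, 7.77% and 3.64% after 8 h, and 2.90% and 1.02% after 12 h. It was higher in sgCNOT3 already at 0 h. Its slope differed by 0.208 per h ± 0.059 (SE, limma adjusted p = 0.014), with 0 to 4 h alone it was -0.0810, and adjusted p was 0.054 without sgCNOT3 replicate 1 at 12 h. The call of DUSP8 was also lost with a pseudocount of 10%, with libraries centred, with 0 to 8 h alone and without 1 and 2 h. DUSP1, the immediate early phosphatase of this family, had 0.171 per h (adjusted p = 0.12 in limma), ARRDC3 -0.025 and SPRY2 -0.035.

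Of the kinases, PIM1 and PIM3 are serine/threonine kinases that promote survival, and SGK1 is induced by serum and glucocorticoids. PIM3 was slower, with 58.5% and 47.7% at 0 h in sgNT, 51.0% and 43.9% after 1 h, 27.7% and 37.3% after 2 h, 16.9% and 18.6% after 4 h, 2.23% and 2.81% after 8 h, and 0.422% and 0.664% after 12 h. In sgCNOT3 PIM3 had 48.8% and 27.1% at 0 h, 45.0% and 47.3% after 1 h, 29.3% and 37.3% after 2 h, 19.3% and 22.1% after 4 h, 3.64% and 6.80% after 8 h, and 1.88% and 0.824% after 12 h. From 4 h on the sgCNOT3 values of PIM3 were the higher ones, by a small margin at 4 h, its slope difference was 0.112 per h ± 0.038 (SE, limma adjusted p = 0.038), and its call was kept in 15 of the 24 fits that left out 1 library. A pseudocount of 10%, centring and 0 to 8 h alone were among the other settings that ended it. PIM1 had a larger estimate with a wider error, 0.262 per h ± 0.122 (SE, limma adjusted p = 0.13), and SGK1 had 0.226 per h ± 0.099 (SE, limma adjusted p = 0.11).

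CCN1, a matricellular protein induced by serum, was the slower of the 2 tested secreted proteins. Its conversions in sgNT were 41.2% and 39.4% at 0 h, 27.1% and 18.4% after 1 h, 4.20% and 12.6% after 2 h, 4.95% and 3.42% after 4 h, 0.656% and 0.263% after 8 h, and 0.285% and listed at 0 after 12 h. In sgCNOT3 CCN1 had 50% and 52.0% at 0 h, 22.7% and 31.8% after 1 h, 11.4% and 8.98% after 2 h, 10.9% and 9.03% after 4 h, 5.35% and 6.11% after 8 h, and 1.05% and 1.74% after 12 h. CCN1 was higher in sgCNOT3 at 0 h, overlapped at 1 and 2 h, and was higher again from 4 h on. The slope difference was 0.189 per h ± 0.068 (SE, limma adjusted p = 0.048), a call kept in 6 of the 24 fits that left out 1 library. It was also lost with a pseudocount of 10% and with libraries centred, among other settings. VEGFA, the vascular growth factor, had the lowest estimate of the members, -0.088 per h ± 0.048 (SE, limma adjusted p = 0.20), and with libraries centred on their medians it was the 1 member that passed as faster.

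MCL1, a short-lived member of the BCL2 family that protects from apoptosis, had 50.8% and 49.0% at 0 h in sgNT, 54.6% and 45.1% after 1 h, 37.8% and 37.1% after 2 h, 22.5% and 17.2% after 4 h, 2.82% and 3.85% after 8 h, and 0.835% and 1.30% after 12 h. In sgCNOT3 MCL1 had 41.6% and 41.5% at 0 h, 36.2% and 38.0% after 1 h, 38.3% and 43.2% after 2 h, 32.1% and 28.6% after 4 h, 15.3% and 13.3% after 8 h, and 4.67% and 4.26% after 12 h. MCL1 was lower in sgCNOT3 at 0 and 1 h and higher from 2 h on. Its slope differed by 0.209 per h ± 0.030 (SE, limma adjusted p = 5.9e-05), a call lost with 0 to 4 h alone. Exons of another gene on the same strand, ADAMTSL4-AS1, and on the opposite strand, ADAMTSL4, overlap the 3′ end of MCL1, and whether counting used strand is not given in the sources used here. An opposite-strand exon also overlaps the 3′ end of CCND1, NR4A1, IER3 and MAFK.

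CCND1, the cyclin of the G1 phase, was at a like level at the start and the end of the chase in sgCNOT3. In sgNT CCND1 had 21.6% and 20% at 0 h, 16.7% and 19.0% after 1 h, 18.4% and 18.9% after 2 h, 12.2% and 9.23% after 4 h, 3.45% and 11% after 8 h, and 0.909% and 5.85% after 12 h. In sgCNOT3 it had 22.0% and 29.5% at 0 h, 19.5% and 24.5% after 1 h, 39.7% and 10.4% after 2 h, 18.2% and 6.36% after 4 h, 24.0% and 10.1% after 8 h, and 26.1% and 22.7% after 12 h. Replicates were far apart from 2 to 8 h, and the genotypes separated only at 0, 1 and 12 h. The slope difference was 0.237 per h ± 0.067 (SE, limma adjusted p = 0.013), it was -0.0727 with 0 to 4 h alone, and adjusted p was 0.075 without sgNT replicate 1 at 12 h. Centring, 0 to 8 h alone and leaving out 1 and 2 h also ended the call of CCND1. GADD45B, a stress-response protein, had -0.052 per h and did not pass.

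The 3 IER proteins, named for immediate early response, did not pass the slope test, at 0.096 per h for IER5, 0.058 for IER2 and 0.045 for IER3. IER2 had 47.1% and 44.1% at 0 h in sgNT, 41.8% and 35.6% after 1 h, 12.1% and 14.4% after 2 h, 10.3% and 12.7% after 4 h, 1.43% and 2.33% after 8 h, and 0.912% and 1.38% after 12 h. In sgCNOT3 IER2 had 47.1% and 43.9% at 0 h, 41.8% and 40.4% after 1 h, 23.0% and 29.2% after 2 h, 15.5% and 16.3% after 4 h, 7.97% and 6.09% after 8 h, and 1.61% and 1.60% after 12 h. The genotypes began at nearly the same level, separated at 2 h and came close again at 12 h. At 8 h the difference was 1.75 ± 0.26 on the log2 scale (SE, limma adjusted p = 0.000525).

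**Figure D2:**
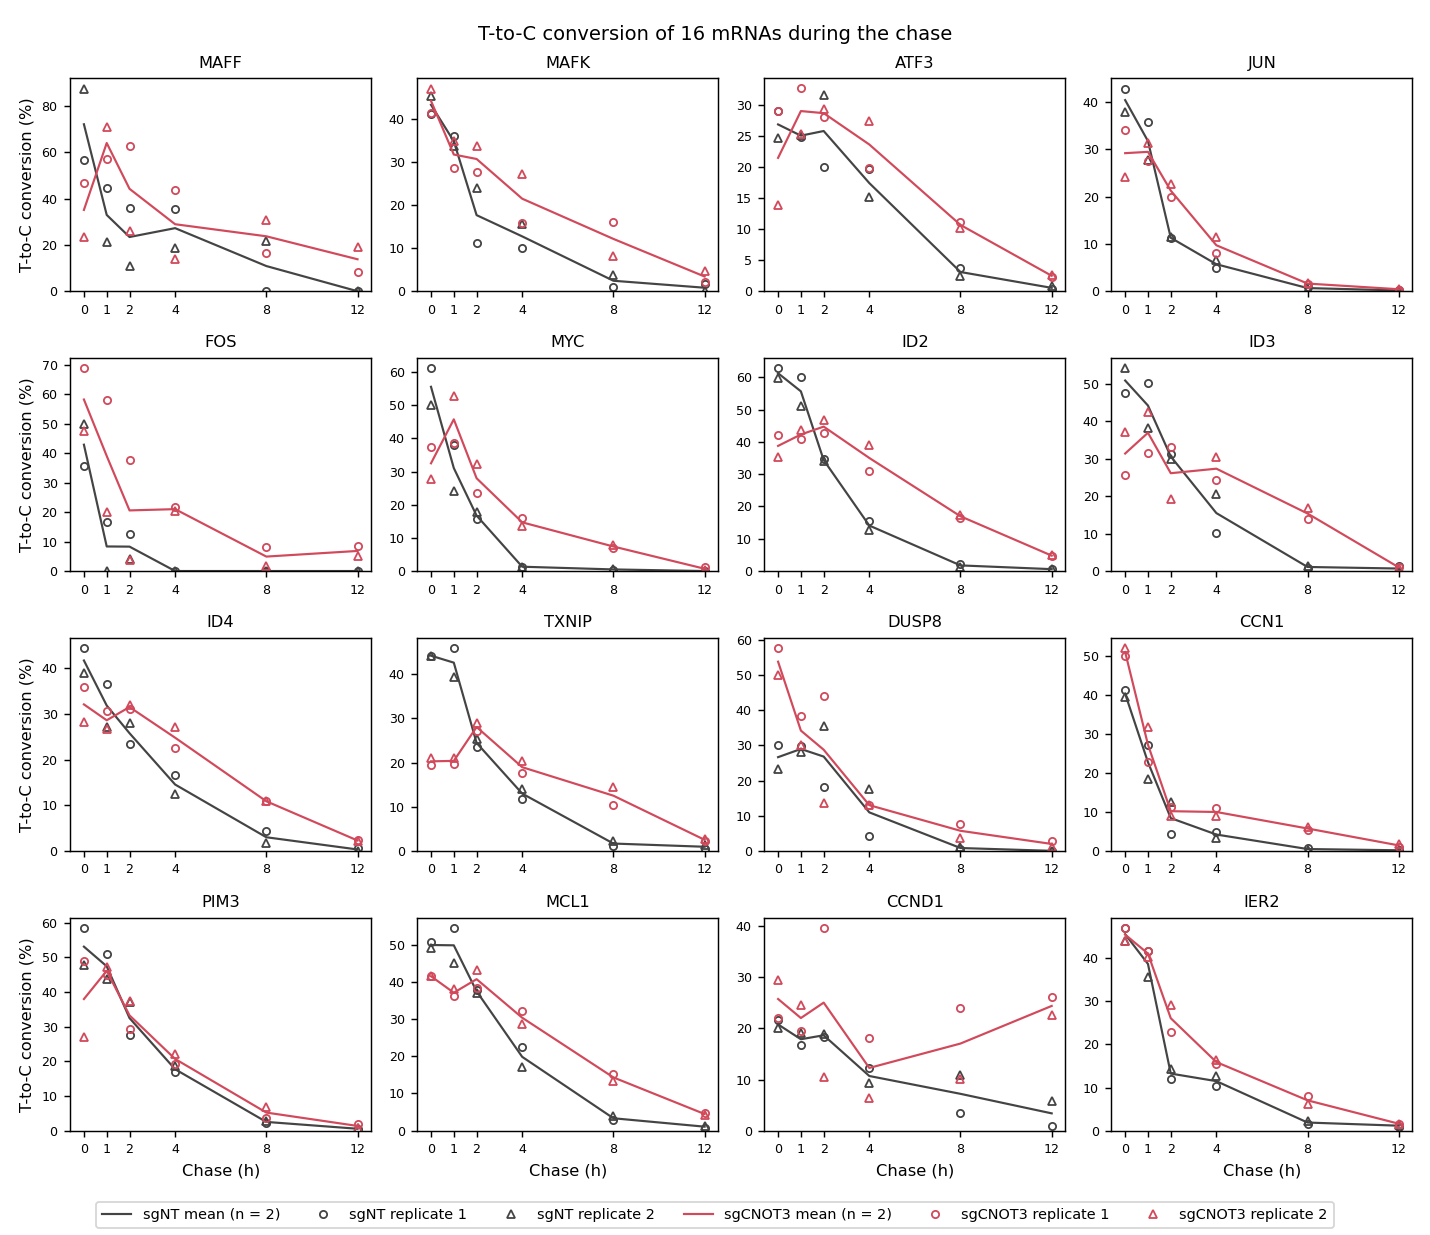
T-to-C conversion in percent (y axis, from 0) against chase time in h (x axis) for 16 mRNAs, with a symbol for each library (circles replicate 1, triangles replicate 2) and lines through the means of 2 libraries, grey for sgNT and red for sgCNOT3. ID2, TXNIP and MCL1 start lower in sgCNOT3 and cross by 2 h, FOS is listed at 0 from 4 h on in sgNT only, and CCND1 is at 26.1% and 22.7% at 12 h in sgCNOT3.

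The difference between genotypes was not even over the chase. At 0 h none of the 28 members passed in either direction in limma (0 higher and 2 lower at an unadjusted p under 0.05), against a background of 0.811% of all genes higher and 4.09% lower. The counts were also 0 in both directions at 1 h (0 and 1 unadjusted) and 2 h (3 and 0 unadjusted). At 4 h 2 members were higher, ID2 and MYC, and 0 lower, against 2.14% and 5.34% of all genes. At 8 h 14 members were higher and 0 lower, against 18.9% and 1.98% of all genes, and at 12 h 12 were higher and 0 lower, against 31.8% and 2.73%. With a pseudocount of 10% of the median at 0 h, only ID2, CCND1 and MCL1 were higher at 12 h, against 20% of all genes. The comparison at 8 h was picked after its values had been seen. Between 0 and 12 h the genotype difference itself changed for 7 of the 28 members in limma, all upwards, against 17.4% of all genes upwards and 0.615% downwards.

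The members higher at 8 h were SGK1, ID3, IER3, MYC, ID2, CCN1, TXNIP, DUSP8, MAFK, MCL1, ID4, IER2, ATF3 and JUND. Of these, 9 also passed the slope test. ID2 had 3.08 ± 0.19 on the log2 scale (SE, limma adjusted p = 1.8e-06) and ID3 3.48 ± 0.56 (SE, limma adjusted p = 0.00089). SGK1 went from 1.35% and listed at 0 in sgNT to 16.3% and 8.49% in sgCNOT3, and with that 0 its fitted difference rested on the pseudocount, at 4.00 ± 0.87 (SE, limma adjusted p = 0.0058) but 1.93 with a pseudocount of 10%. The members higher at 12 h were MAFF, PIM1, CCND1, DUSP8, ID2, ID4, MAFK, CCN1, MCL1, ATF3, MYC and TXNIP, and 9 of them were also among the 14 at 8 h. For MAFF, PIM1, DUSP8 and MYC both sgNT libraries were listed at 0 at 12 h, so the fitted difference there depends on the pseudocount and is not a fold. That of DUSP8 at 12 h was 2.63 on the log2 scale and 0.63 with a pseudocount of 10%.

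In the raw values, both sgCNOT3 libraries lay above both sgNT libraries for 6 of 28 members at 0 h, 10 at 1 h, 14 at 2 h, 17 at 4 h, 23 at 8 h and 19 at 12 h. The same held for 29.1%, 31.3%, 20.4%, 17.8%, 51.8% and 51.9% of all genes tested. The reverse order was found for 9 members at 0 h, 3 at 1 h, 1 at 2 h, 1 at 4 h, 0 at 8 h and 3 at 12 h (ID1, VEGFA and GADD45B), and for 25.9%, 22.8%, 18.5%, 32.4%, 9.01% and 8.28% of all genes tested. The median log2 difference of members moved from -0.16 at 0 h to 0.39 at 2 h, 0.67 at 4 h, 1.95 at 8 h and 1.40 at 12 h, and that of all genes from 0.05 to 0.03, -0.16, 0.48 and 0.65. With a pseudocount of 10%, the medians at 8 h were 1.06 for members and 0.37 for all genes. At 12 h they were 0.38 and 0.41, so the order there depends on the pseudocount. At 4 h the medians lay on opposite sides of 0 as deposited, but with libraries centred both were above 0, at 0.89 for members and 0.06 for all genes. Once each library was centred on its median, 8 members were higher and 0 lower at 8 h, against 3.91% and 5.34% of all genes, and 6 were higher and 3 lower at 12 h, against 10.1% and 14.6%.

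**Figure D3:**
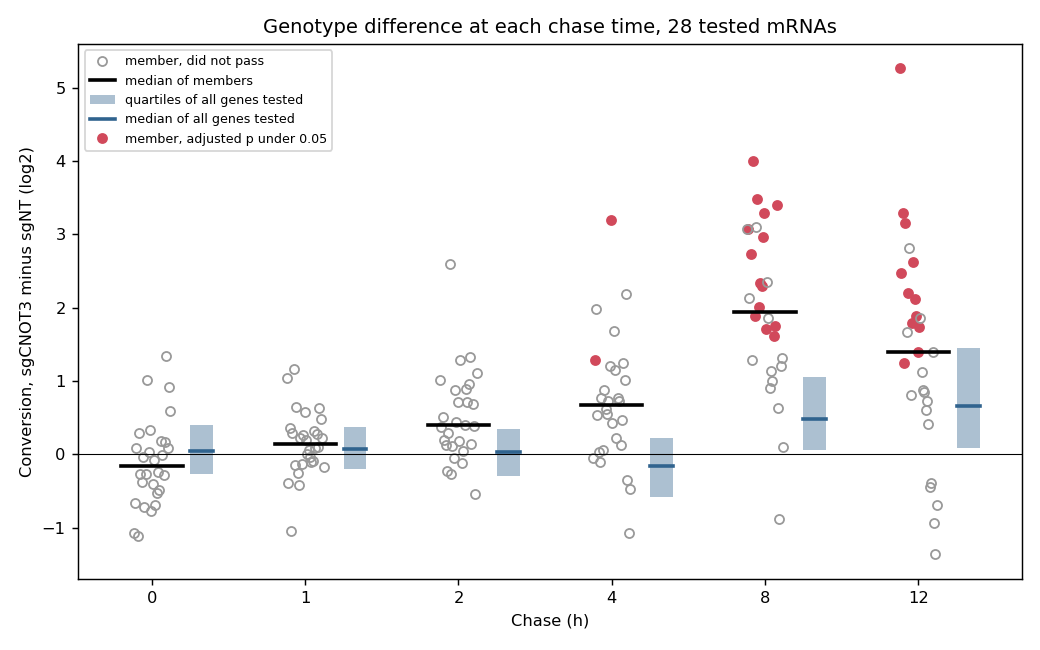
Difference in log2(conversion + pseudocount), sgCNOT3 minus sgNT (y axis), at each chase time in h (x axis), with a point for each of the 28 tested mRNAs, red where the adjusted p in limma was under 0.05, a black bar for their median, and blue bars for the quartiles and median of all genes tested. The members' median is -0.16 at 0 h and peaks at 1.95 at 8 h, and 14 points are red there.

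Half-lives were taken from a single exponential in each genotype. A fit was kept in both genotypes for 25 of the 28 members and for 7833 genes, those left out being MAFF, ATF3 and CCND1. The median half-life in sgNT was 2.12 h for members and 5.61 h for all genes, and each of the 25 was under the median gene. In sgCNOT3 the medians were 3.14 and 7.41 h. The half-life was longer in sgCNOT3 for 22 of 25 members (88.0%), against 63.2% of all genes, and at least doubled for 9 (36.0%), against 13.3%. The median log2 ratio was 0.68 over members (0.66 from replicate 1 and 0.67 from replicate 2) and 0.22 over all genes. Among 769 genes whose sgNT half-life lay within the quartiles of the members, the median log2 ratio was 0.12. With a log-linear fit the median of the members was 0.33 (20 kept) and that of all genes 0.41, so the order of members and all genes depends on the form of the fit.

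The most short-lived member in sgNT was NR4A1, at 0.94 h, with 2.19 h in sgCNOT3. CCN1 had 1.05 and 1.10 h, although its slope test passed, and PIM1 1.09 and 1.46 h. MYC went from 1.10 to 3.44 h, a log2 ratio of 1.64 with 1.49 and 1.76 in the replicates, and TXNIP from 2.28 to 7.19 h, a ratio of 1.65. ID2 had 2.12 and 6.06 h, IER3 1.59 and 4.51 h, and HES1 1.67 and 4.73 h. These belong to the 9 members with a doubled half-life, together with ID3, NR4A1, DUSP1 and ID4. MCL1 had 2.88 and 5.30 h, MAFK 1.98 and 3.97 h, JUN 1.41 and 2.66 h, and IER2 1.68 and 2.70 h. Half-lives were shorter in sgCNOT3 for ID1 (3.76 and 1.39 h), VEGFA (2.88 and 1.81 h) and DUSP8 (3.09 and 2.08 h). For DUSP8 the replicates disagreed, with log2 ratios of 0.35 and -1.53, and the half-life went against the slope test.

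**Figure D4:**
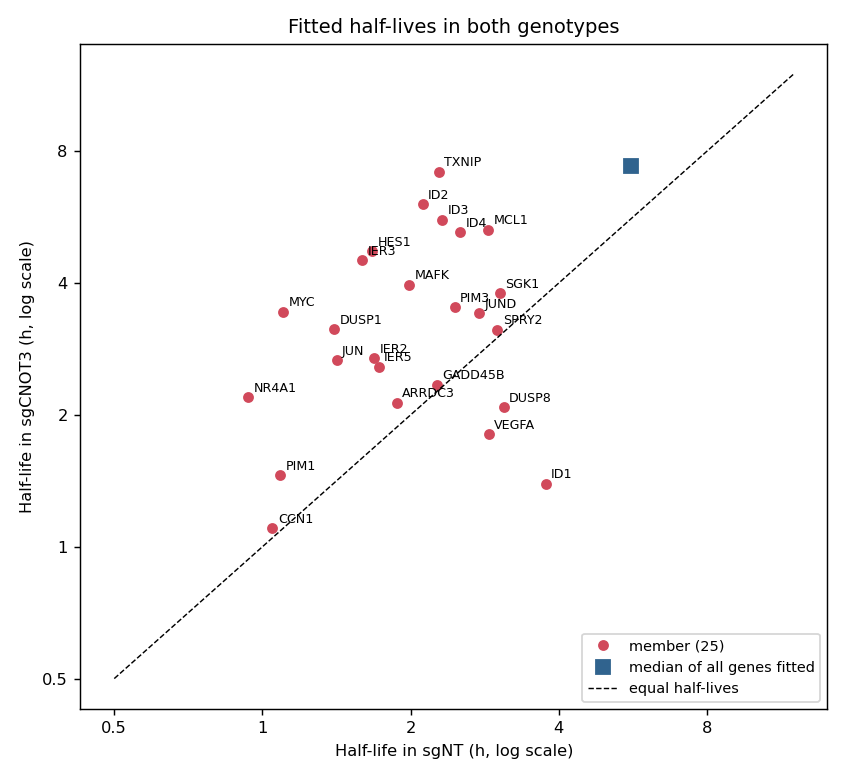
Half-life in sgCNOT3 (y axis, h, log scale) against half-life in sgNT (x axis, h, log scale) for the 25 members with a kept fit, with the median of 7833 genes as a blue square and a dashed line where both are equal. Of the 25 points, 22 lie above the line, and ID1, VEGFA and DUSP8 lie below it.

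AU-rich sequence and the genotype difference were set side by side within the list. The Spearman correlation of the slope difference with AUUUA per kb of 3′ UTR was 0.03 and with the number of UAUUUAU 0.08 across 28 members, given as descriptions across genes that share the same libraries. Over 10708 genes the same values were -0.02 and -0.01. The 20 members with UAUUUAU had a median slope difference of 0.19 per h and the 8 without it 0.11, while the median log2 half-life ratio was 0.58 in 17 and 0.95 in 8. In sgNT, the slope itself had a correlation of -0.29 with the number of UAUUUAU across members and -0.24 across genes. HES1, IER2 and GADD45B hold no AUUUA on the transcript used, and HES1 was among the members with a doubled half-life.

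CGG, CGA and AGG arginine codons, which the study linked to CNOT3 recruitment, made up a median of 2.99% of codons in the tested members and 2.85% over all genes. MCL1 had 6.00% (percentile 95.9 of all genes tested), ATF3 5.52% (percentile 93.8) and VEGFA 5.32% (percentile 92.7). MCL1 and ATF3 were slower and VEGFA was not. JUND, with 0.288%, was at percentile 0.77. The Spearman correlation of this share with the slope difference was 0.07 across 28 members and 0.13 across 10708 genes. The study also reported a depletion from CNOT3-bound ribosomes of codons for lysine, asparagine, tyrosine, isoleucine, methionine, phenylalanine and threonine. With only ACU counted for threonine, those codons made up a median of 17.7% in the tested members and 24.7% over all genes. A link of that share to decay was not tested.

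Other genes of the same response were examined in 3 further lists, to be read against 21.7% slower and 0.345% faster over all genes tested. Of 18 listed AU-rich RNA-binding proteins, 17 were tested, 6 were slower (35.3%) and 0 faster in limma, PCBP1 (0.162 per h) and the TTP relative ZFP36L1 (0.152 per h) at the top, and CELF1 (0.072 per h) and HNRNPD (0.051 per h) at the bottom. Of 23 listed kinases and transcription factors that act upstream of immediate early genes, 22 were tested and 3 were slower (13.6%). These were ELK4 (0.167 per h, limma adjusted p = 0.048), MAP2K1 (0.085 per h, limma adjusted p = 0.022) and MAPK8 (0.085 per h, limma adjusted p = 0.045). SRF (-0.064 per h, limma adjusted p = 0.0498), the factor that binds the serum response element, was faster. ELK4, MAPK8 and SRF were just inside the threshold, and other settings were not run for genes of these lists. Of 42 other immediate early or AU-rich mRNAs, 24 were tested and 3 were slower (12.5%), SOCS2 (0.357 per h), BTG2 (0.316 per h) and CDC25A (0.083 per h), with 0 faster. The median slope difference was 0.051, 0.040 and 0.092 per h in these lists, against 0.184 in the members and 0.058 over all genes.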

How the data were processed

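The authors deposited a T-to-C conversion ratio, a fraction from 0 to 1, per gene and library for 24 SLAM-seq libraries (QuantSeq 3′ end kit, iodoacetamide). Per the study's methods, reads were aligned to GRCh38; the submitters' notes name bcl2fastq. For the aligner, the conversion caller and their versions, and for what the ratio counts (reads or bases), the answer is not given in the sources used here. No counts are held, so no counting interval was computed, and values near 0 at 8 and 12 h are the least certain.

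Tested genes had to be above 0 in every 0 h library (4) and in a minimum of 20 of 24 overall. The log2 of conversion plus 0.34 percentage points was fitted in limma 3.58.1 (R 4.3.3); the pseudocount is 1% of the median at 0 h. Models held genotype, chase time and their interaction, or 12 group means for differences at 1 time. The pseudocount shrinks differences between low values above 0. Against a value listed at 0 it sets the size of the difference, which grows as the pseudocount falls. Tests were two-sided, with Benjamini-Hochberg adjustment over 10731 genes and a threshold of 0.05. Half-lives came from an exponential with a fitted start (limit 24 h, residual standard error at most 0.3), fitted with numpy 2.4.6 in Python 3.11.15. Sequence features came from 1 transcript per gene in GENCODE release 44, to which all 46 listed genes matched. Scripts were tested on simulated data.

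Values in every library are given for members past the slope threshold and for FOS, JUN, MYC, EGR1, IER2 and MCL1, and the slope difference for every tested member. In the other lists, up to 2 genes at each end of those past the threshold are named. Members, lists and roles were chosen with earlier results of these data known. Replicates with the same number did not deviate together (correlation of deviations -0.038 to 0.022), so the numbers were not used as pairs.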

Additional observations from a re-analysis of the deposited data

Results flagged for a closer look

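The genotype difference in log2 conversion changed between 0 and 12 h beyond the spread for 7 of the 28 tested members, all upwards (limma, contrast of 12 h minus 0 h), against 17.4% of all genes upwards and 0.615% downwards. The change was 6.35 ± 1.89 (SE, adjusted p = 0.031 in limma) for MAFF and 3.13 ± 0.27 (SE, adjusted p = 5.6e-06 in limma) for ID2. It was 2.59 ± 0.61 (SE, adjusted p = 0.0086 in limma) for ID4 and 2.37 ± 0.47 (SE, adjusted p = 0.0031 in limma) for TXNIP. MYC had 2.18 ± 0.65 (SE, adjusted p = 0.031 in limma), ATF3 2.15 ± 0.54 (SE, adjusted p = 0.013 in limma) and MCL1 2.06 ± 0.28 (SE, adjusted p = 0.00021 in limma). For each of the 7 the estimate was below 0 at 0 h and above 0 at 12 h, so the start of the chase adds to the change. At 0 h it ran from -0.26 (MCL1) to -1.11 (TXNIP). What set the lower start in sgCNOT3 was not tested. Both sgNT libraries of MAFF and MYC were listed at 0 at 12 h, so their values rest on the pseudocount. With a pseudocount of 10%, chosen after seeing the data, the change was 3.28 for MAFF (adjusted p = 0.081 in limma) and 0.98 for MYC (adjusted p = 0.073 in limma). ID4 (0.97, adjusted p = 0.052 in limma) and ATF3 (0.93, adjusted p = 0.15 in limma) also lost their calls, and ID2, TXNIP and MCL1 kept theirs. At that setting 3 of the 28 members were thus called, against 1337 of the 10731 genes tested called upwards, so no excess of members is claimed there.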

How the results depend on the processing

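Counts of members called moved with the settings as follows, the cause not being tested. The 12 slower members were 5 with a pseudocount of 10%, 6 with genes above 0 in all 24 libraries, 5 (and 1 faster) with libraries centred on their medians, 4 with 0 to 4 h only, 3 without 1 and 2 h (chosen after seeing the data), and 4 and 3 without replicate 1 or 2. Over all genes tested, 14.7% were slower with a pseudocount of 10% and 5.46% with centring. The shares were 0.848% with 0 to 4 h only and 9.12% without 1 and 2 h. Without replicate 1 or 2 they were 3.97% and 4.96%. Only the 14 members never listed at 0 entered the fit of genes above 0 everywhere. In that fit 2034 genes were slower and 539 lower at 0 h. Genes higher numbered 263 at 4 h, 1898 at 8 h and 2847 at 12 h. These are counts in a smaller set of genes and not shares, so the member counts of that fit are not read against them. With the replicate block 10 members were slower (21.7% of all genes), the block ending the calls of ID3 and CCN1, and 11 were higher at 12 h (31.7% of all genes). Leaving out libraries gave 3 to 12 slower members. Members lower at 0 h were 2 with a pseudocount of 10% (5.4% of all genes lower) or genes above 0 everywhere. They were 1 without the limma trend (4.08% of all genes) and 0 to 1 without single libraries. Members higher at 4 h were 4 with a pseudocount of 10% (3% of all genes higher) and 1 with genes above 0 everywhere. At 8 h they were 9 with genes above 0 everywhere and 8 after centring (3.91% of all genes higher). At 12 h they were 3, 5 and 6 with a pseudocount of 10%, genes above 0 everywhere and centring, with 3 lower after centring and 0 to 1 lower without single libraries. With a pseudocount of 10%, 20% of all genes tested were higher at 12 h, a larger share than among the members. With centring, 10.1% of all genes were higher and 14.6% lower. Differences at 1 time were not run without replicate 1 or 2, which leaves 1 library a group and no residual degrees of freedom.

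Among single slope differences, sign changes came with 0 to 4 h only for CCND1 (-0.0727), SGK1 (-0.0772), DUSP8 (-0.0810), JUND (-0.0100), ARRDC3 (0.2217) and SPRY2 (0.2593), and with 0 to 8 h only for ARRDC3 (0.083), GADD45B (0.102) and ID1 (0.070). They also came with centring for IER2 (-0.0076) and IER3 (-0.0202), and with a pseudocount of 0.1% for SPRY2 (0.023). Leaving out libraries gave -0.0474 to 0.176 for IER3, -0.1306 to 0.0799 for ARRDC3, -0.1349 to 0.0250 for SPRY2 and -0.1890 to 0.0271 for ID1.

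The median half-life of members in sgNT ran from 2.03 to 2.27 h without single libraries or replicates, and in sgCNOT3 from 2.78 to 3.35 h. In sgCNOT3 it was 3.43 h with no filter on residuals, 2.88 h in a log-linear fit, 3.49 h with the curve fixed at the mean at 0 h (chosen after seeing the data), 2.91 h with 0 to 4 h, 2.97 h with 0 to 8 h and 3.25 h with libraries scaled. The median log2 ratio under these was 0.81, 0.33, 0.80, 0.86, 0.81 and 0.75, and 0.50 to 0.79 without single libraries or replicates.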
